A study of Mus musculus with 16 samples.

Results

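The islets of the AJ strain were set against those of the other 7 founder strains of the Diversity Outbred mouse population. The members were the 2 AJ samples of 16 in all, chosen by their strain label (A_J), and the comparison group was the other 14 samples. The assay was ATAC-seq of pancreatic islets from 8 inbred strains: a transposase cuts and tags DNA where chromatin is open, and the tagged fragments are sequenced. The strains were 129 (129S1_SvImJ), AJ (A_J), B6 (C57BL/6J), CAST (CAST_EiJ), NOD (NOD_ShiLtJ), NZO (NZO_HlLtJ), PWK (PWK_PhJ) and WSB (WSB_EiJ), each with 1 female and 1 male sample of 50 islets. No sample carried a treatment or an engineered allele, and the labels gave neither the ages nor a batch. The female and the male were the only replicates of a strain, so sex and replicate cannot be told apart within AJ. The samples were of whole islets, in which fewer cells of a type and a less open region per cell cannot be told apart.

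A/J is a classical inbred laboratory strain that is known for gaining less weight on fat-rich diets than B6. All reads were aligned to the B6 reference genome. A lost peak in AJ can therefore reflect closed chromatin, a deleted stretch of DNA or reads that did not align, and the peak lists cannot tell these apart. Accessible regions include promoters, at the start sites of transcription, and distal elements such as enhancers, where transcription factors bind. A peak reports that DNA was reachable and does not report expression.

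Overlapping peaks of the 16 lists on the 19 autosomes were joined into 358621 regions, of which 40930 carried a peak in all 16 samples and are called shared regions. The level of a region in a sample was its highest summit signal, the read pile-up at the top of a peak. Scaled signal is that summit divided by the sample's median over the shared regions, so that 1 is a typical shared region, and a scaled signal of 0 means that no peak was listed. Fold changes are on the scale of log2(summit signal + 1), centred on the same medians, and are AJ minus the mean of the 7 other strains. They understate the change of weak regions. The median summit over shared regions was 65 in the AJ female and 55 in the AJ male, with the lowest other value, 32, in the male of PWK and the highest, 136, in that of CAST. The lists give no read totals, so the depth behind each value is unknown.

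Reference sequence from the mouse genome (GRCm38, the assembly of mm10, plus strand) is shown for regions that led the comparisons. Each run is the 200 bases around the summit in the AJ female, or in the B6 female where AJ had no peak. Capitals mark a match to a searched motif, or the first unit of a tandem repeat. The letters searched on both strands were TGANTCA for AP-1, AGGGGGC for the CTCF core, TGTTTAC for FOXA factors, TAATTA for homeobox factors, CAGATGG for an E-box of the NeuroD type, CCGGAAG for ETS factors and CCAAT for the CCAAT box. Among the losses named below are the Isoc2b promoter, chr7:4866140-4866339, with 3 CCAAT boxes, and intergenic DNA near Gm9889, chr3:115758417-115758616, with an AP-1 site.
Isoc2b: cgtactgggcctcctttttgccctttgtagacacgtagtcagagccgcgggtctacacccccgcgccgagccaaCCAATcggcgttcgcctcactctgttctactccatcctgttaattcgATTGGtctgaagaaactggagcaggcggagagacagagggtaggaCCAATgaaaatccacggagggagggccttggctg
Gm9889: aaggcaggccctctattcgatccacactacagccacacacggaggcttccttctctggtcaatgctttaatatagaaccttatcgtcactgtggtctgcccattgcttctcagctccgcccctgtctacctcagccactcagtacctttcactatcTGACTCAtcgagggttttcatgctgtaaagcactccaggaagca
Among the gains, the stretch near N6amt1, chr16:87318387-87318586, held a CCAAT box, that near Gm37365, chr3:44382109-44382308, a FOXA site, and that in Atp6v1h, chr1:5072553-5072752, a tandem repeat with a unit of 21 bases.
N6amt1: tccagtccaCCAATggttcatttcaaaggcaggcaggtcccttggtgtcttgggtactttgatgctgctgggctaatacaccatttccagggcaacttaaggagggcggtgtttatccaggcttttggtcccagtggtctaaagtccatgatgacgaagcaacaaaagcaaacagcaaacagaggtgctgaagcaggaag
Gm37365: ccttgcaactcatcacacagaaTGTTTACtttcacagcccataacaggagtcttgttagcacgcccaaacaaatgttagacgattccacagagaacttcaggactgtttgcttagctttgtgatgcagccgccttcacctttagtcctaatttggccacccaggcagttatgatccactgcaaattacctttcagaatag
Atp6v1h: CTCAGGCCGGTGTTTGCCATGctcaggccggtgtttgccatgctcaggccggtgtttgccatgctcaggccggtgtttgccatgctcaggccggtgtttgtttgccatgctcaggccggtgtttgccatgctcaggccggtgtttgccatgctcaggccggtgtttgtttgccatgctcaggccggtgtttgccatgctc
Peaks that only the AJ samples had included the strongest, near Gm49574, chr16:58161282-58161481, and a perfect tandem repeat with a unit of 24 bases in Lepr, chr4:101769336-101769535.
Gm49574: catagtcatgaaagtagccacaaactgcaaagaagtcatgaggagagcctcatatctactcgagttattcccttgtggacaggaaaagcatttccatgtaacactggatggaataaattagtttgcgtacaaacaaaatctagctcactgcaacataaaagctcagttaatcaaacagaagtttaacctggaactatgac
Lepr: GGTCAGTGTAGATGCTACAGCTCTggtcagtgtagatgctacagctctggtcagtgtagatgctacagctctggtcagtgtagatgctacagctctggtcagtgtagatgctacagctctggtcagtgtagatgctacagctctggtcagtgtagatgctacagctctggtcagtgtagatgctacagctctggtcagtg
Peaks that all samples but AJ had included an intron of Asap2, chr12:21247798-21247997, an exon of Gm31258, chr16:77301422-77301621, with an AP-1 site and a CCAAT box, and the Ccl27a promoter, chr4:41774090-41774289, with an ETS site.
Asap2: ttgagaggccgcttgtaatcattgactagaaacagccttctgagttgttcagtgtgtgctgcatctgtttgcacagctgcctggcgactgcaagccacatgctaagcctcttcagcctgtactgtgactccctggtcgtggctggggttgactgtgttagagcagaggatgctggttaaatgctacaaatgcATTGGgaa
Gm31258: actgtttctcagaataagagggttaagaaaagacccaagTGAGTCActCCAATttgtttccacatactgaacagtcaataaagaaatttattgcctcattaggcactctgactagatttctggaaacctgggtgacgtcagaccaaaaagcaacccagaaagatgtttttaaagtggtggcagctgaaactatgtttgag
Ccl27a: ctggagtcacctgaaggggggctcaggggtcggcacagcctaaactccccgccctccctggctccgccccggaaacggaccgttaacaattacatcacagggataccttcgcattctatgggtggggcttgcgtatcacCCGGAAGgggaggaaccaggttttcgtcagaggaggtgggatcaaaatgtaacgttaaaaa
Over all shared regions, the 200 bases in the middle held the AP-1 letters in 8.34% of regions, the CCAAT letters in 22.3%, the FOXA letters in 4.62% and the ETS letters in 2.66%.

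The AJ female had 96126 autosomal peaks covering 41.9 Mb and the AJ male 77887 covering 33.1 Mb. The AJ male had the fewest peaks of the 16 lists, while the AJ female had more than both 129 and both NOD samples, whose lists held 89618 to 94449 peaks. The AJ mean was 87006.5 peaks, against 120461 ± 22432 (SD, n = 7 strain means) in the other strains, a difference of -33454.5. The covered length averaged 37.5 Mb in AJ and 56.0 Mb ± 13.3 (SD, n = 7) elsewhere. Neither difference could be told from the spread among strains (exact permutation test over the 8 strains, two-sided, p = 0.25 for peaks and p = 0.375 for coverage); with 8 strains this test cannot pass 0.05.

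The tissue label was checked against marker genes. The promoter of Gcg, the gene of the hormone glucagon, had a scaled signal of 4.66 in the AJ female and 4.93 in the AJ male, and that of Ins1, an insulin gene of mouse beta cells, had 6.49 and 5.87. Other members of that list were below a typical shared region in AJ. Ins2, the other insulin gene, had 0.585 and 0.4, the hormone gene Iapp 0.585 and 0.618, and the granin gene Chga 0.569 and 0.564. Summed over the promoters of 10 islet hormone and granin genes, AJ had 21.8 and 19.5, against 12.3 to 21.3 in the other samples, so that the AJ female was just above them. Of these 10 genes, 8 had a peak in the AJ female and 8 in the AJ male, against 8 to 10 in the others. The 7 acinar genes with a promoter region summed to 1.89 and 1.93 in AJ, within the 1.34 to 3.44 of the others. Leukocyte markers summed to 0.246 in the AJ female and to 0 in the AJ male, in which no promoter of that list had a peak, against 0.146 to 4.05 elsewhere. Endothelial markers summed to 0.415 and 0.364 in AJ, against 0 to 0.818. The part of other cell types in the results below was not tested.

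To ask which accessible regions stood apart in AJ, limma was fitted to the shared regions with strain and sex in the model. Of 40930 regions, 1502 were higher in AJ and 1284 lower at a Benjamini-Hochberg adjusted p under 0.05, which is 3.67% and 3.14% of the regions tested. The median change was 0.92 on the log2 scale among the higher regions and -1.0 among the lower ones. In all 2786 called regions, the female and the male of AJ differed from their counterparts in the same direction. That agreement was largely fixed by the calling, which used the mean of both AJ samples, and is not separate evidence. A test of whether the AJ difference depended on sex called 0 regions by limma, while 1447 had an unadjusted p under 0.05. The spread in this fit is that between female and male within strains. When the 8 strain means took the place of samples, so that the strain was the unit, limma called 0 regions. It gave 1673 at an unadjusted p under 0.05 and a smallest adjusted p of 0.268. Both 1447 and 1673 are below a share of 0.05 of the 40930 regions, so neither count exceeds what chance alone would give. The count was 104 without the AJ female and 37 without the AJ male, and 1192 to 9641 without a single sample of CAST, NOD, NZO or WSB. The main counts therefore describe these samples, and the test over strains did not separate AJ from the variation among strains.

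By range alone, both AJ samples lay above all 14 others in 1431 shared regions (3.5%) and below all 14 in 1430 (3.49%). Of the regions called by limma, 629 lay above that range and 705 below it. The named regions are the 10 largest gains and the 10 largest losses among these. That AJ and the other samples do not overlap in them therefore follows from the choice.

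The Isoc2b promoter had the clearest loss. Isoc2b encodes an isochorismatase domain protein. Its region at chr7:4865164-4867013 had a scaled signal of 1.92 in the AJ female and 1.38 in the AJ male, and of 6.29 to 9.95 in the others (median 8.66). The AJ values and the rest did not overlap, and the lowest other sample was the WSB female. The log2 change was -2.36 ± 0.18 (SE, limma adjusted p = 6.82e-05), and this region also had the smallest adjusted p over strain means, 0.268.

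An exonic region of Mettl14, whose product is a partner subunit of the enzyme that methylates adenosine in mRNA, behaved alike. At chr3:123371590-123372501, which lies 13430 bases from the nearest start site, the AJ samples had 0.985 and 0.945 and the others 3.12 to 5.29 (median 4.15). The change was -2.06 ± 0.17 (limma adjusted p = 0.000139). The calls at Isoc2b and Mettl14 were kept in every alternative that was run except the fits on strain means.

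The largest of the named losses in log2 terms was in intergenic DNA 42858 bases from Gm9889, at chr3:115758008-115759196. AJ had 0.446 and 0.491 there, and the others 0.84 to 5.97 with a median of 3.99. The change was -2.79 ± 0.21 (limma adjusted p = 6.82e-05). The other strains were themselves spread widely at this region, with the NZO female lowest and the PWK female highest.

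Stxbp6 encodes amisyn, a SNARE-binding protein of the exocytosis machinery. An intronic region of it, chr12:45065291-45068647, had 0.8 in both AJ samples and 1.31 to 6.41 in the rest, a change of -2.11 ± 0.21 (limma adjusted p = 0.000537). Plekhm2, which encodes an adaptor that links lysosomes to a kinesin motor, held 2 of the 10 named losses. At its promoter, chr4:141663087-141664702, AJ had 0.338 and 0.145 and the others 0.482 to 1.36. In its intron, chr4:141650838-141652710, AJ had 0.323 and 0.4 and the others 0.512 to 2.84. In neither did the groups overlap. The log2 changes were -1.98 ± 0.27 at the promoter and -1.89 ± 0.20 in the intron (limma adjusted p = 0.00271 and 0.000673).

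The other named losses were in an exon of Fggy, which encodes a carbohydrate kinase, in an intron of Zfand3, which encodes a zinc finger protein, and in intergenic DNA near Gm13126 and AC162035.3. The AJ values at Fggy were 0.262 and 0.218 against 0.31 to 2.77 in the others, so that the nearest other sample, the 129 female, lay just outside the AJ pair. At Zfand3, AJ had 0.354 and 0.127 against 0.581 to 1.22. At Gm13126 the values were 0.185 and 0.273 against 0.476 to 3.09, and at AC162035.3 they were 0.292 and 0.273 against 0.622 to 3.4. The 4 log2 changes lay between -2.29 and -1.90 (limma adjusted p from 0.000109 to 0.0106).

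**Figure D1:**
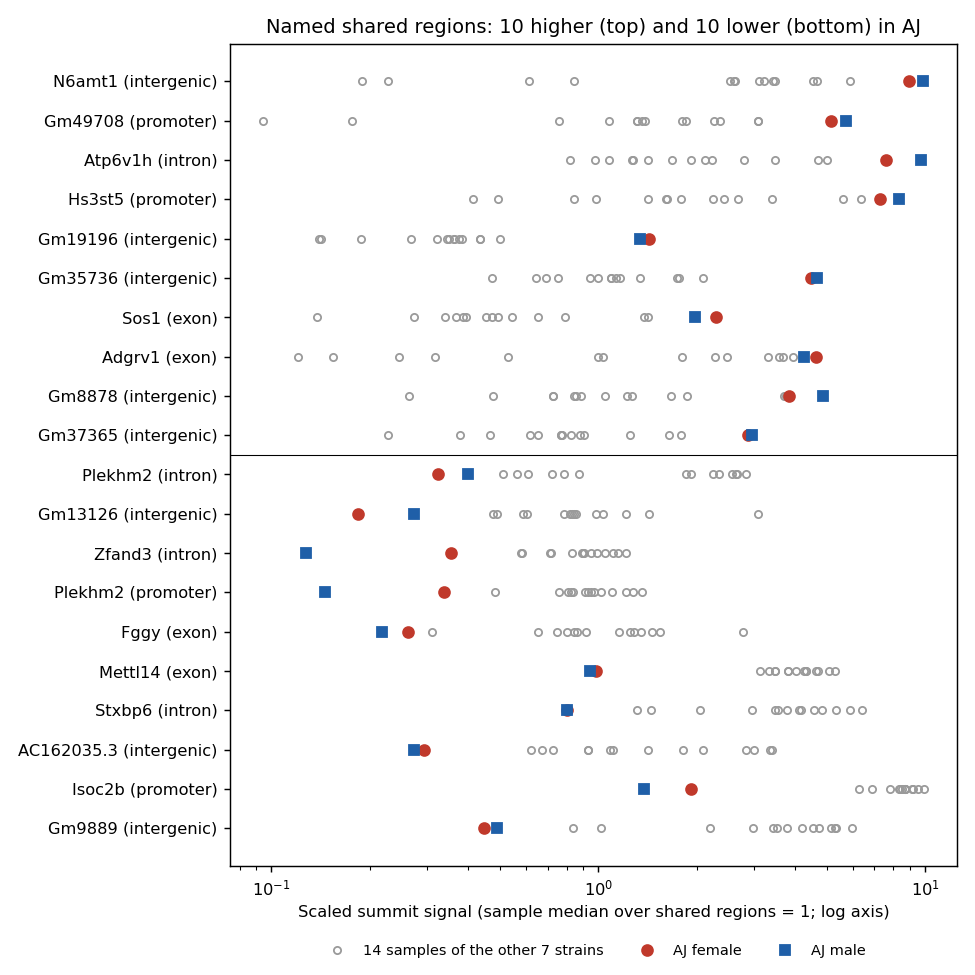
Scaled summit signal (horizontal log axis, 1 is the sample's median over shared regions) of the 20 named shared regions, with the AJ female as red circles, the AJ male as blue squares and the 14 other samples as open grey circles. By the rule that chose the regions, both AJ symbols sit right of every grey circle in the upper 10 and left of every one in the lower 10. The gap is wide at Isoc2b, where AJ had 1.92 and 1.38 and the others 6.29 to 9.95.

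Among the gains, the largest was in intergenic DNA 35217 bases from N6amt1, which encodes a methyltransferase. At chr16:87317994-87318968 the AJ female had 8.92 and the AJ male 9.87, and the others ran from 0.189 in the CAST female to 5.9 in the NOD male (median 2.86). The change was 2.32 ± 0.19 (limma adjusted p = 0.000117). No other sample reached the AJ values, but the other strains were far apart among themselves, and limma over strain means gave an unadjusted p of 0.0981.

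On the same chromosome, the promoter region of the predicted gene Gm49708, chr16:90348235-90350157, had 5.17 and 5.75 in AJ and 0.0943 to 3.08 in the others. Hs3st5 encodes a sulfotransferase that modifies heparan sulfate. Its promoter region, chr10:36506032-36510018, had 7.26 and 8.29 in AJ and 0.415 to 6.38 in the others, with the NOD male the closest. The log2 changes were 2.21 ± 0.22 and 2.16 ± 0.22 (limma adjusted p = 0.000537 for both).

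The region in Atp6v1h, which encodes a subunit of the proton pump that acidifies vesicles and lysosomes, had 7.58 and 9.69 in AJ and 0.817 to 5 in the others (chr1:5071975-5073116, change 2.18 ± 0.29, limma adjusted p = 0.0026). It is intronic in Atp6v1h and lies 1690 bases from the nearest start site, that of Rgs20. This is the region whose reference sequence is the 21-base tandem repeat shown above. The number of copies that the AJ genome carries is not known from these files, and its part in the gain was not tested.

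The gains near Gm19196, Gm35736 and Gm37365 and in an exon of Sos1, which encodes an exchange factor for Ras, were well apart from all other samples. Gm19196 (chr12:21519054-21519778) had 1.43 and 1.35 in AJ and at most 0.5 elsewhere, and Gm35736 (chr6:9498699-9499653) had 4.46 and 4.65 and at most 2.08 elsewhere. Sos1 (chr17:80418424-80419625) had 2.29 and 1.98 against at most 1.42, and Gm37365 (chr3:44381543-44382976) 2.88 and 2.96 against at most 1.79. At Adgrv1, which encodes an adhesion receptor, and near Gm8878 the AJ samples were above the highest other sample, the NOD male, by little. The values there were 4.65 and 4.27 against 3.95, and 3.83 and 4.85 against 3.74. These 6 changes lay between 1.93 and 2.12 (limma adjusted p from 0.000537 to 0.00599).

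Peaks that were present or absent as a whole were counted next. In 214 of the 358621 merged regions (0.0597%), both AJ samples had a peak and no other sample did. In 630 regions (0.176%), all 14 other samples had a peak and neither AJ sample did. With each strain taken in the place of AJ, the count of regions held by that strain alone ran from 187 in 129 to 6279 in CAST, and AJ ranked 7 of 8 (exact permutation test, one-sided, p = 0.875). The count of regions missing in a strain ran from 66 in B6 to 787 in PWK, and AJ ranked 2 of 8 (exact permutation test, one-sided, p = 0.25). Neither count could be told from the spread among strains. With the same number of peaks taken from each sample, AJ held 416 regions alone and lacked 232, so that both counts moved with the length of the lists. With the AJ male as the only AJ sample the counts were 5261 and 3098, and with the AJ female as the only one AJ held 4591 alone.

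**Figure D2:**
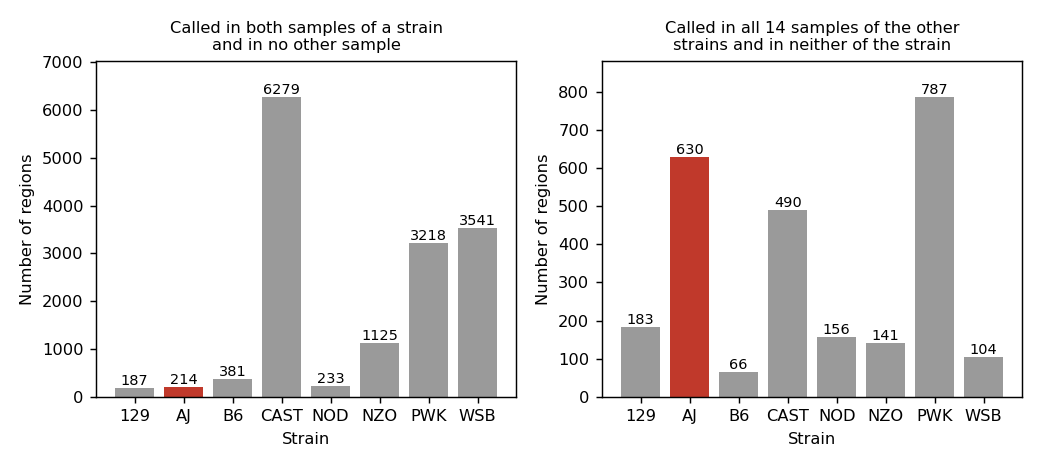
Number of merged autosomal regions (vertical axes, from 0) that had a peak in both samples of a strain and in no other (left), and in all 14 samples of the other strains and in neither of that strain (right), for the 8 strains, AJ in red. AJ is low on the left, with 214, and second to PWK on the right, with 630 against 787.

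Most regions held by AJ alone were weak. Their mean scaled signal over the AJ pair had a median of 0.236, and in 2 of the 214 it reached 1. The strongest lay 75986 bases from Gm49574, at chr16:58161042-58162118, with 2.74 in the AJ female and 3.71 in the AJ male. In raw summit signal these were 178 and 204, and none of the other 14 lists had a peak there. The next were near Gm8960 (chr10:115691913-115692294, 1.02 and 1.45) and Gm37068 (chr1:35522861-35523545, 1.05 and 0.891).

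An intronic region of Lepr, the leptin receptor gene, had 0.538 in the AJ female and 0.836 in the AJ male (chr4:101769341-101769550). Its window is the perfect tandem repeat of 24 bases shown above. The other 6 of the 10 strongest regions, near or in Gm19866, Asap2, Gm38203, Gm48222, Gm13792 and Gm35615, had scaled signals between 0.354 and 0.708 in the AJ samples. The Gm35615 window was a further tandem repeat, with a unit of 29 bases. All 214 were in the AJ strain list of the authors, but 7 of them passed an irreproducible discovery rate (IDR) of 0.05 there, a score of how well peaks repeat between the sexes.

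Regions held by AJ alone numbered 129 intergenic, 53 intronic, 21 promoter and 11 exonic regions. The intergenic share was 60.3%, against 43.3% of all merged regions, and the intronic share 24.8%, against 42.4%. The shares of promoters (9.81% against 8.87%) and exons (5.14% against 5.45%) were near those of all merged regions. Repeats that the reference genome marks covered at least 50% of the bases in 33.6% of them, against 15.1% of all merged regions. In the sets held by 1 other strain alone, that share ran from 9.6% in NZO to 37.7% in PWK, so it was not particular to AJ. Tandem repeats like those above were found in 5 of the 214 windows (2.34%), against 81 of 40930 shared regions (0.198%). These 2 sets are unlike, with a median width of 200 bases in the first and 1144 in the second. The share was not taken for all merged regions or for the sets held by 1 other strain alone.

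In the regions missing in AJ, the mean scaled signal over the 14 other samples had a median of 0.455, and it reached 1 in 16 regions. They numbered 215 intronic, 194 promoter, 146 intergenic and 75 exonic regions. Promoters made up 30.8%, close to the 30.2% of the shared regions, which are likewise called in many samples, and against 5.46% to 28.8% of the sets missing in another strain. Their median GC content was 50.9%, and those of the other strains ran from 43.3% to 46.5%. In the strain lists at an IDR of 0.05, 32 of the 630 were present in all 7 other strains, and none of the 630 was in the AJ strain list at any IDR.

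The strongest region without an AJ peak was in an intron of Asap2, a gene of an Arf GTPase-activating protein. At chr12:21247414-21248333 the other samples had 2.43 to 5.02 with a median of 3.94, all well above a typical shared region. Only 2 regions had a mean over 3 in the others, this one and Gm31258 (chr16:77300445-77302320), where the others spread from 0.545 to 6.42.

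At the promoter of Ccl27a, which encodes a chemokine that attracts T cells, the others had 1.07 to 2.67 (chr4:41772876-41774671). At that of Tlk2, a kinase gene of chromatin assembly, they had 0.618 to 3.13 (chr11:105180635-105182565). At that of Foxk2, a forkhead factor gene, they had 0.674 to 2.55 (chr11:121259307-121260773), and at that of Aff4, a scaffold gene of the super elongation complex, 0.516 to 2.05 (chr11:53350282-53352945). The promoters of Tlk2, Foxk2 and Aff4 all lie on chromosome 11, which is treated below. The Gm5953 promoter (0.239 to 4.65) and regions in Pcdh9, a protocadherin gene (0.642 to 2.95), in Adam17, the gene of a protease that sheds cell surface proteins (0.0795 to 3.93), and near Gm7970 (0.205 to 3.74) completed the 10.

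Some of these regions were neighbours. On chromosome 12, between 21.2 and 21.6 Mb, an Asap2 exon had a peak in AJ and nowhere else, introns of Asap2 and Adam17 had a peak everywhere but in AJ, and the region near Gm19196 was among the 10 largest gains. The 1 Mb window from 21000001 to 22000000 on that chromosome held 5 of the 630 missing regions, among 216 merged ones. The densest window was on chromosome 14 from 43000001 to 44000000, with 17 missing regions among 402 merged ones, at a median mean signal of 0.533 in the other samples. Its genes include Ear1, Ear10 and Ang5, of the ribonuclease A family, among many predicted genes. Regions held by AJ alone were most numerous on chromosome 15 from 15000001 to 16000000, with 12 among 266 merged ones. Chromosome 13 from 65000001 to 66000000 followed, with 11 among 466. Whether AJ carries more or fewer copies of these stretches was not tested.

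AJ was closest to NOD. Across the 40930 shared regions, Pearson's r between the AJ female and the AJ male was 0.935. The r of AJ with NOD was 0.916 as the mean over the sample pairs, followed by B6 (0.878), WSB (0.85), 129 (0.834), PWK (0.81), NZO (0.796) and CAST (0.757). The places of NZO and 129 rest on 1 sample each. With the AJ female and the AJ male, the NZO female had 0.893 and 0.870, but the NZO male 0.732 and 0.689. The 129 male had 0.881 and 0.894, but the 129 female 0.78 with both. These are correlations across regions, which are not independent replicates. The Jaccard index, the bases covered in both lists divided by those covered in either, was 0.576 within the AJ pair and 0.548 with NOD on average, and was lowest with CAST (0.358). NOD also shared the most absences. In 242 regions, AJ and NOD lacked a peak and all other samples had one, against 5 (WSB) to 84 (PWK) for the other pairs with AJ. Regions with peaks in AJ and a single other strain were few, 41 with WSB, 24 with NOD and 7 to 17 with the rest.

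The AJ signal followed the base composition of the genome. In the decile of shared regions with the lowest GC content in the surrounding 100 kb, the AJ female was 0.33 above the mean of the 14 other samples on the log2 scale and the AJ male 0.51 above it (medians). In the decile with the highest GC content they were at -0.35 and -0.37. The sign changed between deciles 6 and 7 in both. Limma called 309 higher and 28 lower regions in the lowest decile and 15 higher and 343 lower regions in the highest. Across all shared regions, the AJ change and the 100 kb GC content had r = -0.47, a description over 40930 regions that share libraries.

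**Figure D3:**
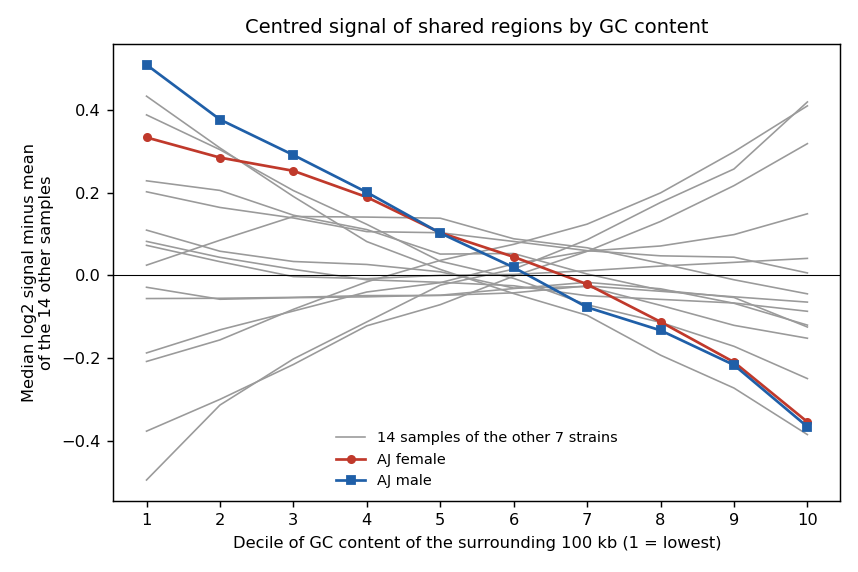
Median difference in centred log2 signal from the mean of the 14 other samples (vertical axis) in deciles of the shared regions by the GC content of the surrounding 100 kb (horizontal axis, 1 is lowest), with the AJ female in red, the AJ male in blue and each other sample in grey. Both AJ lines fall from left to right, from 0.33 and 0.51 to -0.35 and -0.37, and other samples also slope, some the opposite way.

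Such slopes were not particular to AJ. The B6 male fell from 0.43 to -0.38, the NOD female from 0.23 to -0.12 and the NOD male from 0.39 to -0.25. The 129 female and the NZO male rose, from -0.21 to 0.41 and from -0.49 to 0.42. So did the CAST female and male, from -0.38 to 0.32 and from -0.19 to 0.15. The 129 male, by contrast, went from 0.20 to 0.01, so that the samples of 1 strain could differ. What the slopes come from was not tested. A fit was therefore added, after seeing the data, in which each sample was centred within 20 bins of GC content. It called 1640 regions higher (4.01%) and 1277 lower (3.12%). Of the 2786 regions called at first, 1588 were called again in the same direction, 842 higher and 746 lower, and none in the opposite one. The 20 named regions were all called again, but Sos1, Adgrv1 and Gm8878 then lay within the range of the other samples.

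The class of region moved with this choice. Of 12368 promoter regions, 268 were higher and 457 lower in AJ, with a median change of -0.11. After centring within GC bins, 680 were higher and 280 lower, with a median of 0.11. A direction for promoters as a class was thus set by the centring. Intergenic regions leaned the same way in both, with 594 higher and 293 lower of 11908 (median 0.19), and 441 and 351 after GC centring (median 0.07). Intronic regions had 508 higher and 402 lower, and 396 and 528 after GC centring.

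The calls were unevenly spread over the chromosomes. On chromosome 19, 186 of 975 shared regions were higher in AJ (19.1%) and 10 lower, with a median change of 0.32. On chromosome 18, 117 of 1454 were lower (8.05%) and 8 higher, with a median of -0.27. On chromosome 11, 91 of 1146 were lower (7.94%) and 22 higher, also with a median of -0.27. After GC centring the medians were 0.44, -0.26 and -0.10. The AJ pair agreed on each of the 3 chromosomes, and other samples differed there too.

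On chromosome 19, the AJ samples deviated from the mean of all 16 by 0.29 and 0.28 (median log2), while the others ran from -0.75 in the B6 male to 0.37 in the NZO male. On chromosome 18, AJ deviated by -0.29 and -0.17 and the others from -0.35 to 0.30, and on chromosome 11 by -0.24 and -0.21 against -0.46 to 0.55. The AJ values lay within the range of the others on all 3. On chromosomes 3, 10, 12 and 13, by contrast, both AJ samples lay above every other sample, by little. The AJ deviations there were 0.14 and 0.14 against at most 0.12 on chromosome 3, 0.12 and 0.14 against 0.12 on chromosome 10, 0.12 and 0.13 against 0.11 on chromosome 12, and 0.11 and 0.11 against 0.08 on chromosome 13. After GC centring the median changes on these 4 were 0.07, 0.10, 0.12 and 0.03. Chromosome 11 took 2.8% of the peaks in the AJ female and 2.53% in the AJ male. Both lay within the 1.62% to 4.64% of the other lists (median 3.71%). Of the 214 regions held by AJ alone, none lay on chromosome 11 or 18, and of the 630 missing ones 72 and 51 did. Of the 40930 shared regions, 1146 lay on chromosome 11 and 1454 on chromosome 18. The sets of 214 and 630 were drawn from all merged regions, whose counts on these chromosomes are not given here.

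**Figure D4:**
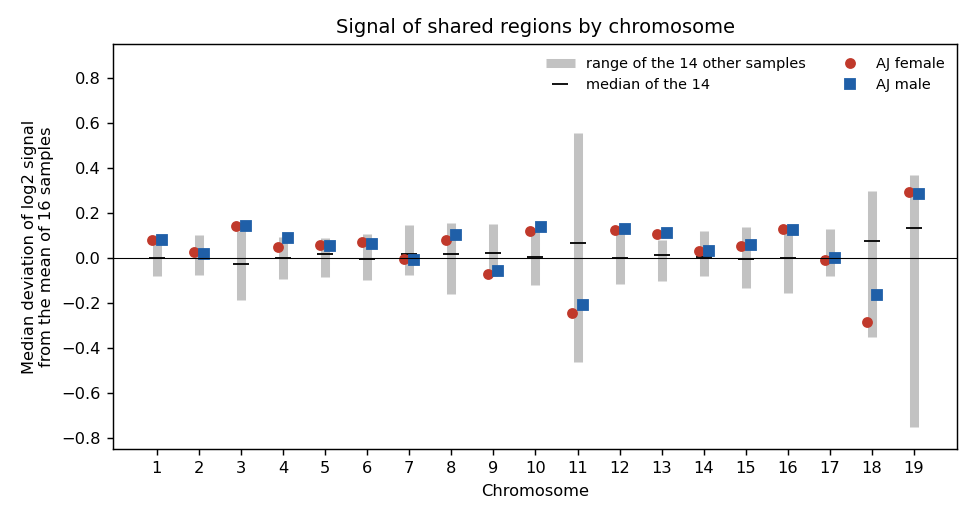
Median deviation of log2 signal from the mean of all 16 samples (vertical axis) over the shared regions of each autosome, for the AJ female (red circles) and male (blue squares), with the range of the 14 other samples as grey bars and their median as a black dash. The AJ pair is high on chromosome 19 (0.29 and 0.28) and low on chromosomes 11 and 18, and the grey bars are longest on the same 3 chromosomes.

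The 5 windows of 1 Mb with most called regions were on chromosomes 8, 16, 19 and 2. They were chosen by that count, so a gap between AJ and the other samples in them follows in part from the choice. On chromosome 8, from 20000001 to 21000000, 39 of 88 shared regions were higher in AJ and none lower. The median scaled signal there was 0.838 in the AJ female and 1.25 in the AJ male, within the others' range of 0.151 to 1.45 (median 0.533). After GC centring, 17 were higher. The window holds Defb33, a defensin gene, and predicted genes. On chromosome 16, from 4000001 to 5000000, 19 of 29 regions were lower. The medians were 0.769 and 0.673 in AJ and 1.19 to 2.02 in the others, with no overlap, and 9 regions were lower after GC centring. Genes there include Crebbp, which encodes an acetyltransferase that serves as a coactivator, Adcy9, an adenylyl cyclase gene, and Glis2.

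On chromosome 2, from 174000001 to 175000000, 16 of 21 regions were lower, the highest share of the 5 windows at 76.2%. The medians were 0.415 and 0.455 in AJ and 0.607 to 1.59 in the others, and 12 regions were lower after GC centring. Gnas, the imprinted gene of the stimulatory G protein alpha subunit, and Stx16, a syntaxin gene, lie in it. The lowest median change of any 5 Mb window was on the same part of chromosome 2, from 170000001 to 175000000, at -1.0, with 29 of 51 regions lower and none higher. After GC centring it was -0.74 with 21 lower.

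On chromosome 19, from 34000001 to 35000000, 17 of 33 regions were higher and none lower. The medians were 1.83 and 1.84 in AJ and 0.452 to 1.44 in the others, again without overlap. The window holds the interferon-induced genes Ifit1, Ifit2, Ifit3 and Ifit3b, and Fas, Lipa, Ch25h and Acta2. From 36000001 to 37000000 on that chromosome, 12 of 24 were higher and 1 lower, at 1.41 and 1.56 in AJ against 0.72 to 1.58, so that both AJ values lay inside the range of the others. After GC centring, 15 regions were higher in the first of these windows, and 11 were higher and 1 lower in the second.

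Gene lists were read at promoters, with the strongest shared region within 1 kb of a start site standing for each gene. Among all promoter regions, 2.17% were higher and 3.70% lower in AJ, and the median change was -0.11. Of 8 tested islet hormone and granin genes, 1 was lower and none higher (median -0.08). The region of Ins2, the counterpart of the human insulin gene, spans chr7:142675422-142680624. It had 0.585 and 0.4 in AJ and 0.382 to 1.75 in the others (median 0.876), overlapping them. The change was -0.82 ± 0.22 (limma adjusted p = 0.0427), and was no longer called after GC centring (limma adjusted p = 0.15). The promoter of Ins1 lay above all other samples, at 6.49 and 5.87 against 1.45 to 5.08, but did not pass (0.82 ± 0.27, limma adjusted p = 0.0754). Iapp, the gene of islet amyloid polypeptide, which beta cells release with insulin, had -0.71 ± 0.21 (limma adjusted p = 0.0591) and passed after GC centring (-1.18, limma adjusted p = 0.00925).

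Of 17 tested islet transcription factor promoters, 2 were lower and none higher (median -0.27). Foxa2 encodes a forkhead factor that opens chromatin in endoderm and islets. Its region, chr2:148043200-148049275, had 1 in the AJ female and 1.11 in the AJ male and 1.8 to 3.62 in the others (median 2.51), with no overlap. The change was -1.27 ± 0.22 (limma adjusted p = 0.00856), and -0.91 after GC centring (limma adjusted p = 0.0115). Myt1, which encodes a zinc finger factor of endocrine differentiation, had 0.431 and 0.418 against 0.582 to 1.49 (chr2:181766661-181768054, change -0.93 ± 0.18, limma adjusted p = 0.0143). Both genes are on chromosome 2, and with each sample centred within 5 Mb windows the Myt1 change was 0.12 (limma adjusted p = 0.869).

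Of 15 tested interferon response promoters, 3 were higher and none lower, with a median of 0.14. Ifit1 and Ifit2, whose products bind foreign RNA, lie in the chromosome 19 window described above. The median change of the 33 shared regions in that window was 0.86. The 5 Mb from 30000001 to 35000000 had a median of 0.73, the highest of any 5 Mb window. The gains at both genes were thus close to that of their surroundings. Their changes in the fit centred within 5 Mb windows are not given here, so no gain apart from the surroundings is claimed. The Ifit1 region (chr19:34639804-34642912) had 3.91 and 5.02 in AJ and 1.38 to 3.56 in the others, a change of 0.97 ± 0.19 (limma adjusted p = 0.0135). At Ifit2 the values were 3.72 and 4.67 against 1.28 to 3.77, so that the AJ female was just inside the range (0.88 ± 0.18, limma adjusted p = 0.0186). Gbp2, which encodes a guanylate-binding protein, is on chromosome 3 and had 1.58 and 2.02 against 0.679 to 1.83 (0.78 ± 0.17, limma adjusted p = 0.024). The Gbp2 call was lost after GC centring (limma adjusted p = 0.202).

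No promoter passed among 22 tested genes of glucose sensing and secretion, 15 of the unfolded protein response, 16 of redox defence, 14 immediate early genes and 16 of the circadian clock. Their medians were -0.10, -0.36, -0.07, -0.24 and -0.37. The members with the smallest p were Kcnj11, a subunit gene of the ATP-sensitive potassium channel, in a wide region shared with Gm45487 (-0.71 ± 0.24, limma adjusted p = 0.08), Ppp1r15a (-0.72 ± 0.23, limma adjusted p = 0.0675), Keap1 (-0.80 ± 0.23, limma adjusted p = 0.0502), Nr4a1 (-0.99 ± 0.28, limma adjusted p = 0.0502) and Per1 (-0.95 ± 0.30, limma adjusted p = 0.067). After GC centring, the regions of Jund (0.61, shared with other promoters) and Bhlhe40 (0.71) passed (limma adjusted p = 0.0406 and 0.0297). The list of trait loci known to differ in A/J had 4 promoters tested of 16 genes. None passed, the smallest p being that of Cs, the citrate synthase gene (-0.34 ± 0.20, limma adjusted p = 0.275).

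Among markers of other pancreatic cell types, Cftr, the chloride channel gene of duct cells, was higher in AJ, at 0.8 and 1.27 against 0.292 to 0.849 (0.97 ± 0.21, limma adjusted p = 0.0222). The other of the 2 duct promoters tested, that of the mucin gene Muc1, had -0.59 ± 0.35 (limma adjusted p = 0.275). Col1a2, a collagen gene of mesenchymal cells, was higher at 0.6 and 0.691 against 0.247 to 0.598 (0.65 ± 0.18, limma adjusted p = 0.0462), and the other mesenchymal promoter tested, Pdgfra, had 0.04 ± 0.24 (limma adjusted p = 0.92). Over the whole lists the AJ samples lay within the range of the others. The 7 duct promoters summed to 2.18 and 2.09 in AJ, within 1.55 to 4.95 in the others, and the 6 mesenchymal ones to 1.8 and 1.27, within 0.627 to 2.13. The 2 acinar promoters tested differed in sign, with -0.50 ± 0.21 at Bhlha15 (limma adjusted p = 0.14) and 0.35 ± 0.20 at Nr5a2 (limma adjusted p = 0.26). No endothelial or leukocyte promoter was shared by all samples. With strain means as the unit, limma called 0 of these promoters, and 6 had an unadjusted p under 0.05.

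**Figure D5:**
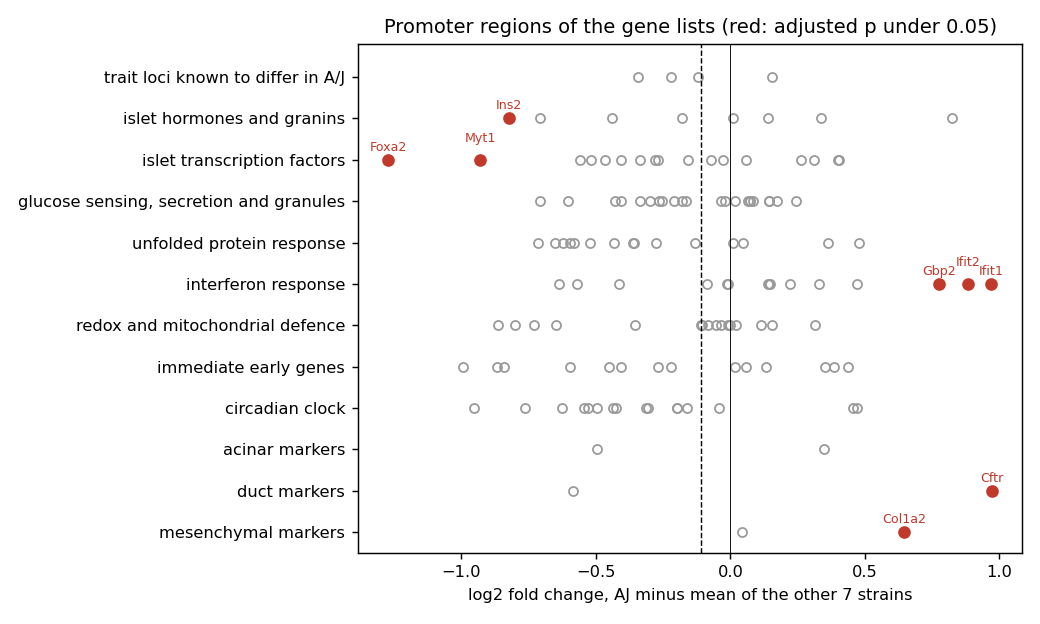
Log2 fold change of AJ against the mean of the other 7 strains (horizontal axis) at the promoter regions of the gene lists (rows), with regions past a limma adjusted p of 0.05 in red and named, the others as open grey circles, and the median of all promoter regions (-0.11) as a dashed line. Foxa2 (-1.27) lies furthest left. Myt1 (-0.93) is also on the left, but regions that did not pass, such as Nr4a1 (-0.99) and Per1 (-0.95), lie beyond it. Cftr, Ifit1 and Ifit2 (0.97, 0.97 and 0.88) lie furthest right. Ins1 (0.82), which did not pass, and Gbp2 (0.78) come next.

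The motif letters were counted in the 200 bases at the middle of each region. Homeobox letters were in 7.92% of regions higher in AJ, 4.36% of those lower and 6.07% of all shared regions. ETS letters ran the other way, at 1.66%, 4.13% and 2.66%. FOXA letters were in 5.19%, 4.05% and 4.62%, and AP-1 letters in 7.06%, 8.18% and 8.34%. CTCF core letters were in 3.79%, 5.76% and 5.22%, and those of the E-box in 5.73%, 6.70% and 5.83%. CCAAT letters were in 25.2%, 19.8% and 22.3%, so that they were less common among the lower regions than over all, although the Isoc2b window held 3. Motifs were counted separately, also where matches overlapped. In the regions missing in AJ, ETS letters were in 4.13% and homeobox letters in 3.97%. The median GC content of the region was 43.4% among the higher regions, 50.8% among the lower and 47.0% over all, and AT-rich and GC-rich letters move with it. A match is a description of these letters and not of a bound factor.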

How the data were processed

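The upstream steps are given as the labels and the study's methods state them. Before deposit, the authors cut adapter sequence from the reads (cutadapt 2.0) and placed the pairs on mm10 (Bowtie2 2.3.4.1). Unmapped and mitochondrial reads (SAMtools) and duplicates (Picard 2.9.2) were dropped. MOSAiCS then listed peaks for each sample, and for the pooled sexes of each strain, at an FDR of 0.05. A shift for the transposase cut is not given in the sources used here. The deposited lists hold the summit signal and the mean signal of each peak, not scaled to depth, its −log10 p-value and, in the strain lists, the −log10 of the IDR. The lists were built on the same assembly as the reference used here, as far as the last peak base of all 19 autosomes lay within its length. Classes and gene names came from GENCODE M21.

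Peaks on chromosomes 1 to 19 were merged wherever they overlapped. Each shared region was tested with limma (3.58.1, R 4.3.3) on log2(summit signal + 1), centred per sample, with strain and sex as terms. The contrast was AJ against the mean of the 7 other strain coefficients, two-sided, with Benjamini-Hochberg adjustment over 40930 regions and a threshold of 0.05. These p-values measure the spread between the sexes within strains, which may be technical. Counts were tested by exact permutation over the 8 strains. Promoters lay within 1 kb of a start site. Tables were handled with Python (3.11.15), pandas (2.3.3), numpy (2.4.6), pysam (0.24.0) and bedtools (2.31.1), and the fit was tested on simulated data.

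Named were the 10 highest and 10 lowest called regions outside the range of the 14 others, the 10 strongest regions present or missing in AJ alone, every called promoter of the gene lists with the member of smallest p in each list, and the 5 windows of 1 Mb with most calls. Each region took the name of the gene at whose start it lay, else of the gene around it, else of the nearest start. Ins1, Gcg, Iapp, Chga, Jund and Bhlhe40 were named after their values were seen. The members and lists were chosen with earlier results of these data known. Alternatives changed the centring, pseudocount, signal column, region set, model and samples. Centring within GC bins or 5 Mb windows, and leaving out the 129 female, the NZO male and the PWK male, were chosen after seeing the data.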

Additional observations from a re-analysis of the deposited data

How the results depend on the processing

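The 2786 calls among shared regions depended on the model and the samples. With strain means limma called 0, with 1673 regions at an unadjusted p under 0.05. Centred within GC bins it also called 0, with 1310, and both counts are below a share of 0.05 of the regions tested. With AJ against the 14 samples as a single group limma called 5, or 7 when centred within GC bins. The count was 1093 with the mean signal column, 5777 for regions called in at least 12 samples, 1761 for the strongest 50% of peaks, 33 among classical strains, 999 centred within windows of 5 Mb, and 7630 leaving out the 129 female, the NZO male and the PWK male. Without CAST it was 730, without NZO 6146 and without WSB 1518. Leaving out each replicate in turn gave 37 to 9641, with 104 without the AJ female and 37 without the AJ male, 9641 and 5288 without the NZO female or male, 1201 and 1292 without those of CAST, 1376 and 1382 without those of NOD, and 1456 and 1192 without those of WSB. The cause was not tested. Without any centring 71 regions were higher and 3508 lower, against 1502 and 1284, and the median change of all regions moved from 0.06 to -0.29.

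Regions held by AJ alone numbered 48 in the strongest 50% of peaks, 416 with equal numbers of peaks and 524 among classical strains, and 221 to 5261 when each replicate was left out, with 5261 without the AJ female and 4591 without the AJ male. Regions missing in AJ numbered 232 with equal numbers of peaks, 151 where a peak had to cover 50% of the region and 1026 among classical strains, and 631 to 3098 when each replicate was left out, with 3098 without the AJ female. The difference in list size ran from -42574 to -24335 peaks and from -22.9 to -14.1 Mb. Of the gene list promoters, 0 were called over strain means (6 at an unadjusted p under 0.05).

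Of the 28 regions named from a call, 26 were called again when centred within GC bins, 17 without the AJ female, 10 without the AJ male and 0 over strain means. The 1 reversal was Myt1, at 0.12 when centred within windows of 5 Mb (limma adjusted p = 0.869). The sex term of the model already pairs the female and male samples across strains; without it 1751 regions were higher and 1543 lower. No paired analysis was possible by replicate number because the labels give none. Depth is unknown, so weak peaks limit presence and absence.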
